A study of Homo sapiens with 18 samples.

Results

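The genes examined were 9 transcriptional targets of the Wnt/beta-catenin pathway (AXIN2, LGR5, NKD1, RNF43, ZNRF3, ASCL2, TCF7, LEF1 and SP5) together with MYC. They were picked by symbol and make up 10 of the 40916 symbols in each count table. All 10 symbols were present, 1 entry each. RNA was sequenced from MCF10A, a non-tumorigenic human mammary epithelial line that expressed the nuclear label H2B-GFP here, from an unlabelled HCT116 colorectal carcinoma line, and from a mixed culture of both described as 50% of each. Each culture was either non-irradiated (NIR) or had received 10 Gy (IR), which gave 6 groups of 3 replicates and 18 libraries. The monocultures were grown in different media, MCF10A in a horse serum medium with EGF, hydrocortisone, cholera toxin and insulin, and HCT116 in McCoy's medium with fetal bovine serum, so line and medium cannot be told apart. The medium of the mixed culture and the number of clones behind either line are not given in the sources used here. The sample titles give the harvest as day 2, while the study's text gives 72 h after irradiation. The replicates are called biological without saying whether they were separate cultures, so the p-values measure the spread between these samples.

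Wnt ligands bind Frizzled receptors and LRP co-receptors and stop a destruction complex of APC, AXIN and the kinases GSK3 and CK1 from marking beta-catenin for degradation. Beta-catenin then enters the nucleus and switches on target genes through the TCF/LEF factors, and several of those targets feed back on the pathway. In intestinal epithelium this pathway maintains the crypt stem cells, and it is active in most colorectal cancers. HCT116 is known for an activating mutation of CTNNB1, the beta-catenin gene. MYC, a transcription factor that drives ribosome production and cell growth, is a classical Wnt target in the colon but is also controlled by many other signals.

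The short letters that TCF/LEF factors recognise, CTTTG followed by AA, AT, TA or TT, were searched on both strands of RefSeq promoter windows (GRCh38.p14). Windows of 4 of the 10 genes were searched (SP5, LEF1, TCF7 and RNF43), 6 windows in all. The other genes were left out of this search, so nothing is said about their promoters. In the 250 bases before the start site, 3 matches lay in the window of SP5 and 1 lay in the second window of TCF7, whereas the windows of LEF1 and RNF43 and the first window of TCF7 held no match. For comparison, 12.0% of 35116 promoter windows held at least 1 match over the same 250 bases. Both windows with matches are printed 5′ to 3′ because they show where these letters lie in 2 genes described below, and the capitals mark the matches. The SP5 window is chr2:170715087-170715336 on the plus strand and overlaps no annotated exon of SP5. Its start site, 170715337, lies upstream of the annotated gene start at 170715351. Exons of other genes were not searched for either window. The TCF7 window is chr5:134123368-134123617 on the plus strand and lies inside the gene, in no annotated exon of TCF7.

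SP5: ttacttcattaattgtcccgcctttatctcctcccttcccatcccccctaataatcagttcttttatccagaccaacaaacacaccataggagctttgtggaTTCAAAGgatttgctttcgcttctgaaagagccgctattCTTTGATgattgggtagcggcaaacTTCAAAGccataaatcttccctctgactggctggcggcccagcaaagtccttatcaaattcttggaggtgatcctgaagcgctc

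TCF7: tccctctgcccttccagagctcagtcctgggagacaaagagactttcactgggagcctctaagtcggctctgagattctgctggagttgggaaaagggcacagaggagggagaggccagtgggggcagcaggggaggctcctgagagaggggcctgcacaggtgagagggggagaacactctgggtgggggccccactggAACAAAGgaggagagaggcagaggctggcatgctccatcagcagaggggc

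In SP5 the matches lay 148 to 142, 109 to 103 and 84 to 78 bases before the start, and in TCF7 the match lay 50 to 44 bases before it. A match describes the letters only and is not evidence of binding.

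Sequencing depth was 25737818 to 40839835 counts per library. Summed basal mammary markers reached 9995.4 to 10746.5 counts per 1000000 counts of the library (CPM) in MCF10A NIR against 711.2 to 773.4 CPM in HCT116 NIR, where 4 of the 10 markers reached 1 CPM and TP63 was at 0. Summed colorectal markers reached 1046.8 to 1336.2 CPM in HCT116 NIR against 9.36 to 11.2 CPM in MCF10A NIR, but only 4 of 9 reached 1 CPM in HCT116 and the intestinal factor CDX1 was at 0 there. Reads of neighbouring genes may add to some values, because exons of AXIN2, LEF1, LGR5, NKD1, RNF43 and TCF7 overlap those of other genes, such as SUPT4H1 for RNF43 and SKP1 for TCF7, and the strand setting of the counting is not given in the sources used here. Leukocyte markers summed to at most 4.05 CPM and endothelial markers to at most 3.30 CPM in all 18 libraries.

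**Figure D1:**
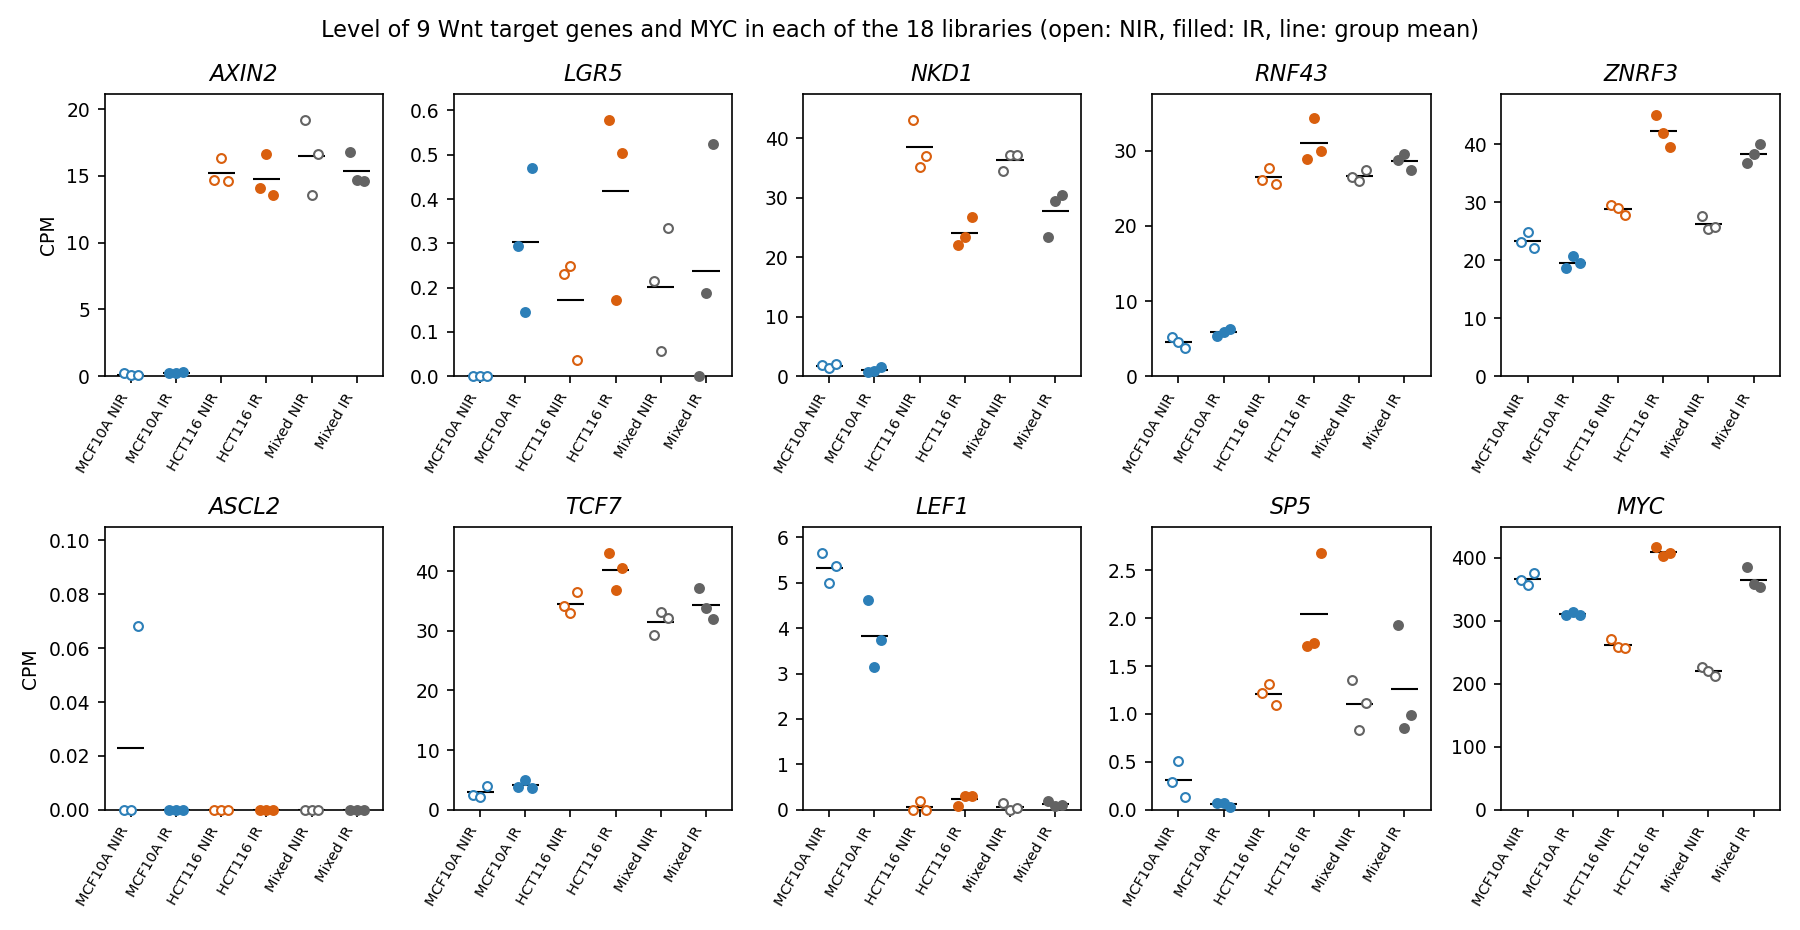
Level of each of the 10 genes in CPM (linear vertical axes, one scale per gene) in every library, with 1 point per library, open for NIR and filled for IR, and a line at the group mean of 3 libraries. AXIN2, NKD1, RNF43 and TCF7 sat high in HCT116 and mixed libraries and low in MCF10A, LEF1 did the reverse, and MYC moved in opposite directions with irradiation in the 2 lines.

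Compared per kilobase of annotated exon, MYC had the highest level and ZNRF3 the second highest of the 10 genes by group mean in all 6 groups. The ranks below MYC depend on the exon lengths, which were 17425 bases for NKD1, 10063 for TCF7 and 6968 for ZNRF3. In CPM not divided by length, NKD1 (38.4) and TCF7 (34.6) lay above ZNRF3 (28.8) in HCT116 NIR. In mixed NIR the libraries of ZNRF3 (3.65 to 3.95 CPM per kilobase) overlapped those of RNF43 (3.46 to 3.66). In HCT116 NIR the group means were 87.2 CPM per kilobase for MYC, 4.13 for ZNRF3, 3.53 for RNF43, 3.44 for TCF7, 2.91 for AXIN2, 2.21 for NKD1, 0.584 for SP5, 0.0328 for LGR5, 0.0116 for LEF1 and 0 for ASCL2. In that order RNF43 overlapped TCF7, and LGR5, LEF1 and ASCL2 overlapped their neighbours, while the libraries of the other neighbours were separate. MCF10A NIR had another order, with MYC at 121.8 CPM per kilobase, ZNRF3 at 3.35, LEF1 at 0.994, RNF43 at 0.602, TCF7 at 0.288, SP5 at 0.152, NKD1 at 0.102, AXIN2 at 0.0230, ASCL2 at 0.0123 and LGR5 at 0. Here TCF7 overlapped SP5, SP5 overlapped NKD1, and AXIN2, ASCL2 and LGR5 overlapped their neighbours. LEF1 thus had rank 3 in MCF10A NIR and rank 9 in HCT116 NIR.

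The first comparison asks how the lines differ without irradiation. AXIN2, NKD1, TCF7, RNF43 and SP5 were higher in HCT116 NIR than in MCF10A NIR, LEF1 and MYC lower, and ZNRF3 did not pass the test. Of the 8 genes with enough counts to be tested, 5 were therefore higher and 2 lower at an adjusted p under 0.05 (edgeR's quasi-likelihood test, Benjamini-Hochberg over all 16568 genes tested). The background was wide, since 74.8% of all genes tested passed, 38.7% higher and 36.1% lower. Their median log2 difference was 2.03, beside 0.05 over all genes tested.

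AXIN2 (chr17:65528563-65561647, minus strand, GRCh38) encodes a scaffold of the destruction complex and is the most widely used readout of beta-catenin activity. Its levels were 0.235, 0.0563 and 0.0683 CPM in the 3 MCF10A NIR libraries, which is 8, 2 and 2 counts, and 14.7, 16.3 and 14.6 CPM in HCT116 NIR. The groups did not overlap, and AXIN2 was close to undetected in every MCF10A NIR library. The log2 difference was 6.73 ± 0.29 (SE; adjusted p = 4.2e-13).

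NKD1 (chr16:50548330-50649249, plus strand) encodes an inhibitor that binds Dishevelled, the adaptor below the receptors. It had 1.91, 1.41 and 2.02 CPM in MCF10A NIR and 43.1, 35.2 and 37.0 CPM in HCT116 NIR, a log2 difference of 4.24 ± 0.14 (SE; adjusted p = 1.3e-14). All HCT116 libraries lay far above all MCF10A libraries.

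RNF43 (chr17:58352500-58417595, minus strand) and ZNRF3 (chr22:28883592-29057487, plus strand) encode related membrane ubiquitin ligases that remove Frizzled receptors from the cell surface. RNF43 had 5.20, 4.62 and 3.72 CPM in MCF10A NIR and 26.1, 27.7 and 25.6 CPM in HCT116 NIR, a log2 difference of 2.35 ± 0.13 (SE; adjusted p = 1.4e-11). ZNRF3 had 23.2, 24.8 and 22.1 CPM in MCF10A NIR and 29.6, 29 and 27.8 CPM in HCT116 NIR. The ZNRF3 libraries did not overlap in CPM, yet its log2 difference was 0.10 ± 0.087 (SE; adjusted p = 0.29), and this value depends on the scaling. It was computed with TMM factors, which edgeR estimates from the bulk of the genes. With library size alone the ZNRF3 difference was 0.30 (adjusted p = 0.0045) and with upper-quartile factors 0.31 (adjusted p = 0.004). These 2 scalings moved the median log2 difference of all genes tested from 0.05 to 0.25, and the share of called genes that were higher in HCT116 from 51.8% to 62.2% and 62.4%. The 2 sister ligases thus differed in how far apart the lines were. Over the 14 other settings, the difference ran from 2.22 to 2.55 for RNF43 and from 0.05 to 0.31 for ZNRF3.

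LGR5 (chr12:71439770-71586310, plus strand), the R-spondin receptor that marks crypt stem cells, and ASCL2 (chr11:2268495-2270952, minus strand), the transcription factor of the same cells, were almost silent. LGR5 had 0 counts in all 3 MCF10A NIR libraries and 0.231, 0.249 and 0.0362 CPM in HCT116 NIR. Against the limit of 3 counts over the group this is at least 5.93-fold higher in HCT116 NIR, or at least 2.97-fold if each fragment was counted by both of its reads, and LGR5 had too few counts for the test. ASCL2 had 2 counts in MCF10A NIR replicate 3, or 0.0683 CPM, and 0 counts in the other 17 libraries. With no filter on low counts LGR5 had an adjusted p of 0.025 in this comparison, and with all 18 libraries in 1 fit 0.0089. Both stem-cell genes thus had at most 0.249 CPM in the 6 libraries of this comparison.

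TCF7 (chr5:134114711-134151865, plus strand), LEF1 (chr4:108047545-108168956, minus strand) and SP5 (chr2:170715351-170718078, plus strand) encode transcription factors, the former pair being DNA partners of beta-catenin. TCF7 had 2.53, 2.20 and 3.96 CPM in MCF10A NIR and 34.2, 33.0 and 36.5 CPM in HCT116 NIR, a log2 difference of 3.40 ± 0.16 (SE; adjusted p = 1.2e-12). LEF1 went the other way, with 5.65, 4.99 and 5.36 CPM in MCF10A NIR against 0, 0.186 and 0 CPM in HCT116 NIR. The 3 HCT116 NIR libraries held 6 LEF1 counts in all, and the log2 difference was -6.50 ± 0.51 (SE; adjusted p = 2.2e-09). Without HCT116 NIR replicate 2, which held all 6, the fitted value was -10.50, and without HCT116 NIR replicate 1 it was -5.87. SP5, a repressor in the Sp family, had 0.294, 0.507 and 0.137 CPM in MCF10A NIR against 1.22, 1.31 and 1.09 CPM in HCT116 NIR, a log2 difference of 1.71 ± 0.50 (SE; adjusted p = 0.0049). TCF7 and SP5 were thus higher in HCT116 and LEF1 in MCF10A, in a comparison where 74.8% of all genes tested passed.

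MYC (chromosome 8) had 364.5, 356.8 and 375.5 CPM in MCF10A NIR and 271.0, 258.2 and 255.8 CPM in HCT116 NIR. Every MCF10A library was above every HCT116 library, and the log2 difference was -0.68 ± 0.049 (SE; adjusted p = 6.1e-10). With library size alone or upper-quartile factors it was -0.48 and the call held. MYC thus lay in the opposite direction to AXIN2, NKD1, RNF43 and TCF7.

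The same lines were then compared after 10 Gy. Of the 9 genes tested, 7 were higher and 1 was lower in HCT116 IR than in MCF10A IR, where 74.9% of 16932 genes passed, 38.1% higher and 36.8% lower. Library size alone raised the share of called genes that were higher from 50.9% to 62.4%, and upper-quartile factors raised it to 60.2%. AXIN2 (log2 difference 5.53 ± 0.24 SE), NKD1 (4.21 ± 0.18), TCF7 (3.05 ± 0.12) and RNF43 (2.17 ± 0.12) were again higher in HCT116, and LEF1 was again lower (-4.25 ± 0.39). ZNRF3 passed here with 0.88 ± 0.086 (SE; adjusted p = 9.8e-10), and its libraries had 18.6, 20.7 and 19.5 CPM in MCF10A IR and 45.1, 41.9 and 39.6 CPM in HCT116 IR. MYC now lay above MCF10A, with 409.0 ± 7.43 CPM (SD, n = 3) in HCT116 IR and 310.5 ± 3.13 CPM in MCF10A IR, a log2 difference of 0.17 ± 0.045 (SE; adjusted p = 0.0015). With upper-quartile factors that difference was 0.35 and with library size alone 0.40. MYC was thus higher in MCF10A without irradiation and higher in HCT116 after it.

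In MCF10A, 10 Gy lowered MYC, ZNRF3 and LEF1 moderately. Of the 6 genes tested, 3 were lower and 0 were higher in IR than in NIR, where 55.4% of 15154 genes passed, 26.2% higher and 29.2% lower. At an unadjusted p under 0.05 the same test counted 1 gene as higher, and DESeq2 counted 0 at an adjusted p under 0.05. Upper-quartile factors gave 2 higher and 1 lower, and raised the share of called genes that were higher from 47.4% to 57.5%.

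MYC fell from 364.5, 356.8 and 375.5 CPM to 308.6, 314.1 and 308.9 CPM with no overlap, a log2 change of -0.26 ± 0.040 (SE; adjusted p = 2.9e-06). ZNRF3 fell from 23.2, 24.8 and 22.1 CPM to 18.6, 20.7 and 19.5 CPM, a log2 change of -0.27 ± 0.091 (SE; adjusted p = 0.012). LEF1 fell from 5.65, 4.99 and 5.36 CPM to 4.63, 3.14 and 3.73 CPM, a log2 change of -0.50 ± 0.18 (SE; adjusted p = 0.024). The MYC call held in all 14 other settings, whereas those of ZNRF3 and LEF1 were lost in 3 and 5 of 14. ZNRF3 had an adjusted p of 0.065 without NIR replicate 2, 0.056 without IR replicate 1 and 0.077 with upper-quartile factors. LEF1 had 0.07 without NIR replicate 1, 0.11 without IR replicate 2, 0.061 without IR replicate 3, 0.06 with upper-quartile factors and 0.28 with all 18 libraries in 1 fit.

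RNF43, TCF7 and NKD1 did not pass in MCF10A. RNF43 had 5.40, 5.91 and 6.29 CPM in MCF10A IR, all above the 3.72 to 5.20 CPM of NIR, with a log2 change of 0.35 ± 0.17 (SE; adjusted p = 0.084). It passed with upper-quartile factors (adjusted p = 0.033) and without NIR replicate 1 (adjusted p = 0.045). TCF7 had 3.78, 4.96 and 3.70 CPM against 2.53, 2.20 and 3.96 CPM, with overlap, and a log2 change of 0.50 ± 0.23 (SE; adjusted p = 0.066), which passed without NIR replicate 3 (0.79, adjusted p = 0.0087). NKD1 had 0.772, 0.948 and 1.5 CPM against 1.91, 1.41 and 2.02 CPM and a log2 change of -0.73 ± 0.35 (SE; adjusted p = 0.076), which passed without IR replicate 3 (-1.06, adjusted p = 0.031). TCF7 also passed with upper-quartile factors (adjusted p = 0.033), with halved counts (adjusted p = 0.047) and with all 18 libraries in 1 fit (adjusted p = 0.015), where RNF43 (0.022) and NKD1 (0.011) passed too. Whether these 3 genes passed thus depended on single libraries and on the fit.

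AXIN2, SP5 and LGR5 had too few counts in MCF10A for the test of irradiation. AXIN2 had 0.220, 0.219 and 0.353 CPM in MCF10A IR, overlapping the NIR range of 0.0563 to 0.235 CPM. SP5 had 10, 18 and 4 counts in NIR and 2, 2 and 1 counts in IR. LGR5 had 0 counts in NIR and 8, 4 and 16 counts in IR, at least 10.4-fold higher against the limit of 3 counts over the NIR group, or 5.20-fold with halved counts. LGR5 was thus detected in all 3 irradiated MCF10A libraries and in none of the 3 others, at 0.146 to 0.470 CPM. With no filter on low counts its adjusted p was 0.0016 and that of SP5 was 0.08, and with all 18 libraries in 1 fit they were 0.0028 and 0.0048.

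**Figure D2:**
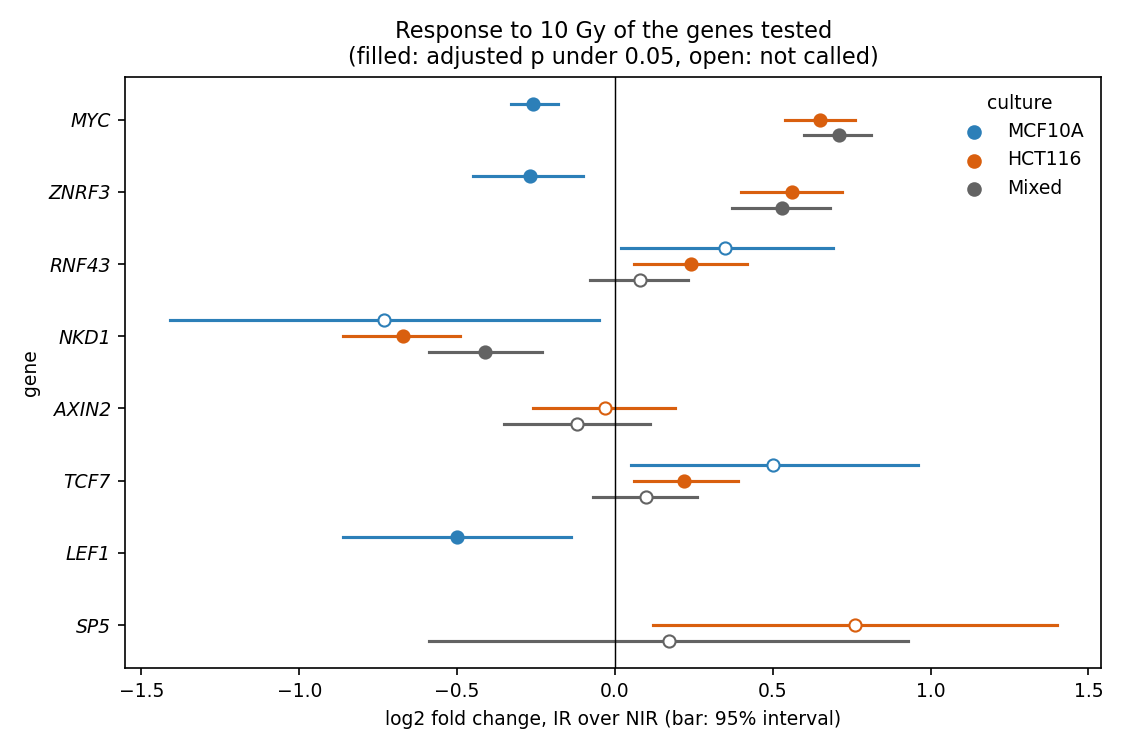
Change of each tested gene with 10 Gy on the log2 scale (IR over NIR, linear axis), with 1 point per culture and bars for the 95% interval, filled where the adjusted p was under 0.05. MYC and ZNRF3 lay below 0 in MCF10A and above 0 in HCT116 and the mixed culture, and NKD1 lay below 0 in all 3.

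In HCT116, 10 Gy raised MYC and ZNRF3 and lowered NKD1. Of the 7 genes tested, 4 were higher and 1 was lower in IR, where 52.5% of 16857 genes passed, 25.3% higher and 27.2% lower. Their median log2 change was 0.24, beside 0.01 over all genes tested.

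MYC rose from 271.0, 258.2 and 255.8 CPM to 417.0, 402.3 and 407.8 CPM, a log2 change of 0.65 ± 0.055 (SE; adjusted p = 7.2e-10). ZNRF3 rose from 29.6, 29 and 27.8 CPM to 45.1, 41.9 and 39.6 CPM, a log2 change of 0.56 ± 0.083 (SE; adjusted p = 4.4e-06). NKD1 fell from 43.1, 35.2 and 37.0 CPM to 22, 23.4 and 26.7 CPM, a log2 change of -0.67 ± 0.096 (SE; adjusted p = 2.8e-06). The calls of these 3 genes held in all 14 other settings.

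The smaller rises of RNF43 and TCF7 were less firm. RNF43 went from 26.1, 27.7 and 25.6 CPM to 28.9, 34.3 and 30.0 CPM, a log2 change of 0.24 ± 0.091 (SE; adjusted p = 0.030). TCF7 went from 34.2, 33.0 and 36.5 CPM to 43.1, 36.8 and 40.6 CPM, a log2 change of 0.22 ± 0.084 (SE; adjusted p = 0.030). The calls of both genes needed nearly all libraries. RNF43 had an adjusted p of 0.084 without NIR replicate 1, 0.066 without NIR replicate 3 and 0.2 without IR replicate 2. TCF7 had 0.087 without NIR replicate 1, 0.13 without NIR replicate 2, 0.15 without IR replicate 1, 0.076 without IR replicate 3 and 0.085 with all 18 libraries in 1 fit.

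AXIN2, the standard readout, had 14.7, 16.3 and 14.6 CPM before and 14.1, 16.6 and 13.6 CPM after 10 Gy in HCT116. The groups overlapped, with a log2 change of -0.03 ± 0.11 (SE; adjusted p = 0.84) and a 95% interval from -0.26 to 0.19. SP5 had 1.22, 1.31 and 1.09 CPM before and 1.71, 1.74 and 2.68 CPM after, without overlap, and a log2 change of 0.76 ± 0.33 (SE; adjusted p = 0.056). SP5 passed with halved counts (adjusted p = 0.047). LGR5 had 0.579, 0.171 and 0.505 CPM in HCT116 IR, overlapping NIR, and LEF1 had 0.0914, 0.294 and 0.311 CPM, also overlapping. Both were too low for the test. The destruction complex scaffold AXIN2, the adaptor inhibitor NKD1 and the ligase ZNRF3 thus had 3 different outcomes in the same libraries.

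Whether the lines responded differently was tested directly, as the change in HCT116 minus the change in MCF10A. Of the 9 genes tested, 4 had a higher and 1 a lower response in HCT116, where 37.3% of 18179 genes passed, 15.4% higher and 21.9% lower. The median over all genes tested was -0.10. This balance turned with all 18 libraries in 1 fit (3565 higher, 3318 lower, median -0.01), with no filter on low counts (3525 and 3267), without any 1 of the MCF10A IR replicates (3343 to 3394 higher, 2906 to 2986 lower, median 0.01) and without HCT116 IR replicate 2 (3382 and 2970, median -0.01). The difference was 0.83 ± 0.063 (SE; adjusted p = 1.3e-10) for MYC and 0.76 ± 0.12 (SE; adjusted p = 1.5e-05) for ZNRF3, and both calls held in all 20 other settings. These 2 genes fell in all 3 MCF10A IR libraries and rose in all 3 HCT116 IR libraries relative to every NIR library of their line.

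SP5 had a response difference of 3.12 ± 0.82 (SE; adjusted p = 0.0037) and rests on the 10, 18, 4, 2, 2 and 1 counts of MCF10A. LEF1 had 2.23 ± 0.81 (SE; adjusted p = 0.033) on 6 counts in HCT116 NIR, and its call was lost in 5 of 20 settings. All 6 counts lay in HCT116 NIR replicate 2, without which the fitted difference was 6.21 (adjusted p = 0.00074), against a group at 0. The LEF1 call was lost without HCT116 NIR replicate 1 (1.60, adjusted p = 0.12) or HCT116 NIR replicate 3 (1.75, adjusted p = 0.089). It was also lost without HCT116 IR replicate 2 (2.05, adjusted p = 0.096) or HCT116 IR replicate 3 (2.04, adjusted p = 0.081). The fit with the replicate number as a block lost it too (adjusted p = 0.053). LGR5 had -5.22 ± 1.8 (SE; adjusted p = 0.026), a fitted value that is no bound because its MCF10A NIR group was at 0, and 8 of 19 settings lost the call. Those were all 18 libraries in 1 fit (adjusted p = 0.052) and leaving out any MCF10A NIR replicate, MCF10A IR replicate 3, HCT116 NIR replicate 1 or 2, or HCT116 IR replicate 2 (adjusted p 0.053 to 0.071). The differences of these 3 genes are therefore read from very few counts.

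NKD1 had a response difference of -0.05 ± 0.27 (SE; adjusted p = 0.94), RNF43 -0.19 ± 0.17 (adjusted p = 0.42), TCF7 -0.37 ± 0.21 (adjusted p = 0.19) and AXIN2 -1.22 ± 0.53 (adjusted p = 0.075). TCF7 passed without MCF10A NIR replicate 3 (-0.64, adjusted p = 0.013) and AXIN2 without MCF10A NIR replicate 1 (-2.15, adjusted p = 0.0097). For NKD1 the 95% interval ran from -0.58 to 0.48, so a difference of moderate size between the lines was not detectable.

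The mixed cultures were then compared with HCT116 alone, since they held little MCF10A RNA. The median ratio of genes specific to 1 line put the MCF10A share at 0.498, 0.368 and 0.395% of the RNA in the mixed NIR libraries and at 1.238, 1.17 and 1.27% in the mixed IR libraries. The means were 0.420 ± 0.0685% and 1.23 ± 0.0511% (SD, n = 3 each), beside the 50% each that the description gives. Other choices of genes or summed CPM gave 0.263 to 0.705% and 0.843 to 2.17%. The IR libraries were all higher, by 0.806 percentage points, with p = 0.1 in a 2-sided exact permutation test, the smallest that 3 against 3 can give. In bulk RNA, fewer cells of a line and less RNA per cell cannot be told apart.

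With 10 Gy the mixed culture raised 2 and lowered 1 of the 7 genes tested, where 49.4% of 16906 genes passed, 24.0% higher and 25.4% lower. MYC rose from 226.5, 220.3 and 212.9 CPM to 384.7, 357.8 and 353.2 CPM, a log2 change of 0.71 ± 0.055 (SE; adjusted p = 9.1e-10). ZNRF3 rose from 27.6, 25.4 and 25.7 CPM to 36.8, 38.3 and 40.1 CPM, a log2 change of 0.53 ± 0.077 (SE; adjusted p = 7.8e-06). NKD1 fell from 34.4, 37.1 and 37.2 CPM to 23.4, 29.5 and 30.4 CPM, a log2 change of -0.41 ± 0.092 (SE; adjusted p = 0.00077). The 3 genes kept their calls in all 14 other settings.

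The other genes did not pass in the mixed culture. RNF43 (26.5, 26 and 27.5 CPM before, 28.8, 29.6 and 27.5 CPM after) had a log2 change of 0.08 ± 0.081 (SE; adjusted p = 0.47), and TCF7 (29.3, 33.2 and 32.1 CPM before, 37.2, 33.9 and 31.9 CPM after) one of 0.10 ± 0.084 (adjusted p = 0.37). AXIN2 had 19.2, 13.6 and 16.6 CPM before and 16.8, 14.7 and 14.6 CPM after, and SP5 had 1.36, 0.836 and 1.11 CPM before and 1.93, 0.855 and 0.994 CPM after. AXIN2 and SP5 overlapped between groups, with log2 changes of -0.12 ± 0.12 (adjusted p = 0.42) and 0.17 ± 0.39 (adjusted p = 0.74). LEF1, the gene high in MCF10A, stayed at 0 to 0.143 CPM in mixed NIR and 0.0802 to 0.198 CPM in mixed IR.

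Set against HCT116 of the same treatment, MYC was the 1 gene of 7 that differed without irradiation, and it was lower, where 2.04% of 16455 genes passed, 0.887% higher and 1.15% lower. Its 3 mixed NIR libraries lay below the 3 HCT116 NIR libraries, with a log2 difference of -0.24 ± 0.057 (SE; adjusted p = 0.037). Leaving out any 1 of the 6 libraries ended the call (log2 difference -0.26 to -0.22, adjusted p = 0.077 to 0.13). Among irradiated cultures MYC was again the 1 gene of 8 that differed, at -0.17 ± 0.049 (SE; adjusted p = 0.023), where 8.56% of 17137 genes passed, 5.08% higher and 3.48% lower. That call was lost without HCT116 IR replicate 1 (adjusted p = 0.059) or 3 (0.06), without mixed IR replicate 2 (0.13) or 3 (0.18), and with all 18 libraries in 1 fit (0.064). TCF7 missed the threshold there, at -0.23 ± 0.081 (SE; adjusted p = 0.075), and passed without HCT116 IR replicate 2 (adjusted p = 0.042) without mixed IR replicate 1 (adjusted p = 0.032) or with the replicate number as a block (adjusted p = 0.022). None was higher in either comparison: edgeR and DESeq2 both counted 0, and 0 had an unadjusted p under 0.05.

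The response of the mixed culture minus that of HCT116 passed for 0 of the 8 genes tested, where 0.83% of 18072 genes passed, 0.681% higher and 0.149% lower. At an unadjusted p under 0.05 it was also 0, and DESeq2 counted 0. The difference was 0.07 for MYC (adjusted p = 0.79), -0.02 for ZNRF3 (adjusted p = 0.96) and 0.27 for NKD1 (adjusted p = 0.42). The 95% intervals ran from -0.08 to 0.21 for MYC, from -0.24 to 0.19 for ZNRF3 and from 0.00 to 0.54 for NKD1.

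The wider pathway was described through 97 genes in 7 lists by role. Between the lines without irradiation, 77 were tested, and 44 were higher and 23 lower in HCT116, beside 38.7% and 36.1% of all genes. The median log2 difference of the 77 was 0.49, beside 0.05 over all genes tested. Wnt ligands were the list with the highest median, with 12 of 15 tested genes higher, 3 lower and a median of 2.63. WNT6 (1.98 against 0 CPM) and WNT3A (1.82 against 0 CPM) were at least 65.6-fold and 59.3-fold higher in HCT116 NIR against 3 counts over the MCF10A group. WNT5A, a ligand best known for signalling without beta-catenin, had 69.3 CPM in MCF10A NIR and 0 counts in HCT116, at least 2180-fold lower in HCT116. If each fragment was counted by both reads, such bounds are lower, for example 1090-fold for WNT5A.

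Secreted inhibitors followed no single direction between the lines. Of 5 tested, 3 were higher and 1 lower in HCT116 NIR, beside 38.7% and 36.1% of all genes. NOTUM, an enzyme that inactivates Wnt ligands, had 11.1 CPM against 0, at least 364-fold higher in HCT116. FRZB differed by 6.50 ± 0.54 (SE), with 4.57 CPM in HCT116 NIR and 0.0396 CPM in MCF10A NIR, a level near 0. SFRP1, a secreted Wnt-binding protein, had 434.1 ± 8.43 CPM (SD, n = 3) in MCF10A NIR while HCT116 NIR had 0 counts of it, which is at least 13662-fold lower. Among the receptors 6 of 15 were higher and 5 lower, shares near those of all genes. ROR2 was at 8.43 ± 0.34 and the R-spondin receptor LGR4 at -1.85 ± 0.070 (SE). The size of the ROR2 difference rests on a level near 0, with 25.6 CPM in HCT116 NIR and 0.0683 CPM in MCF10A NIR.

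**Figure D3:**
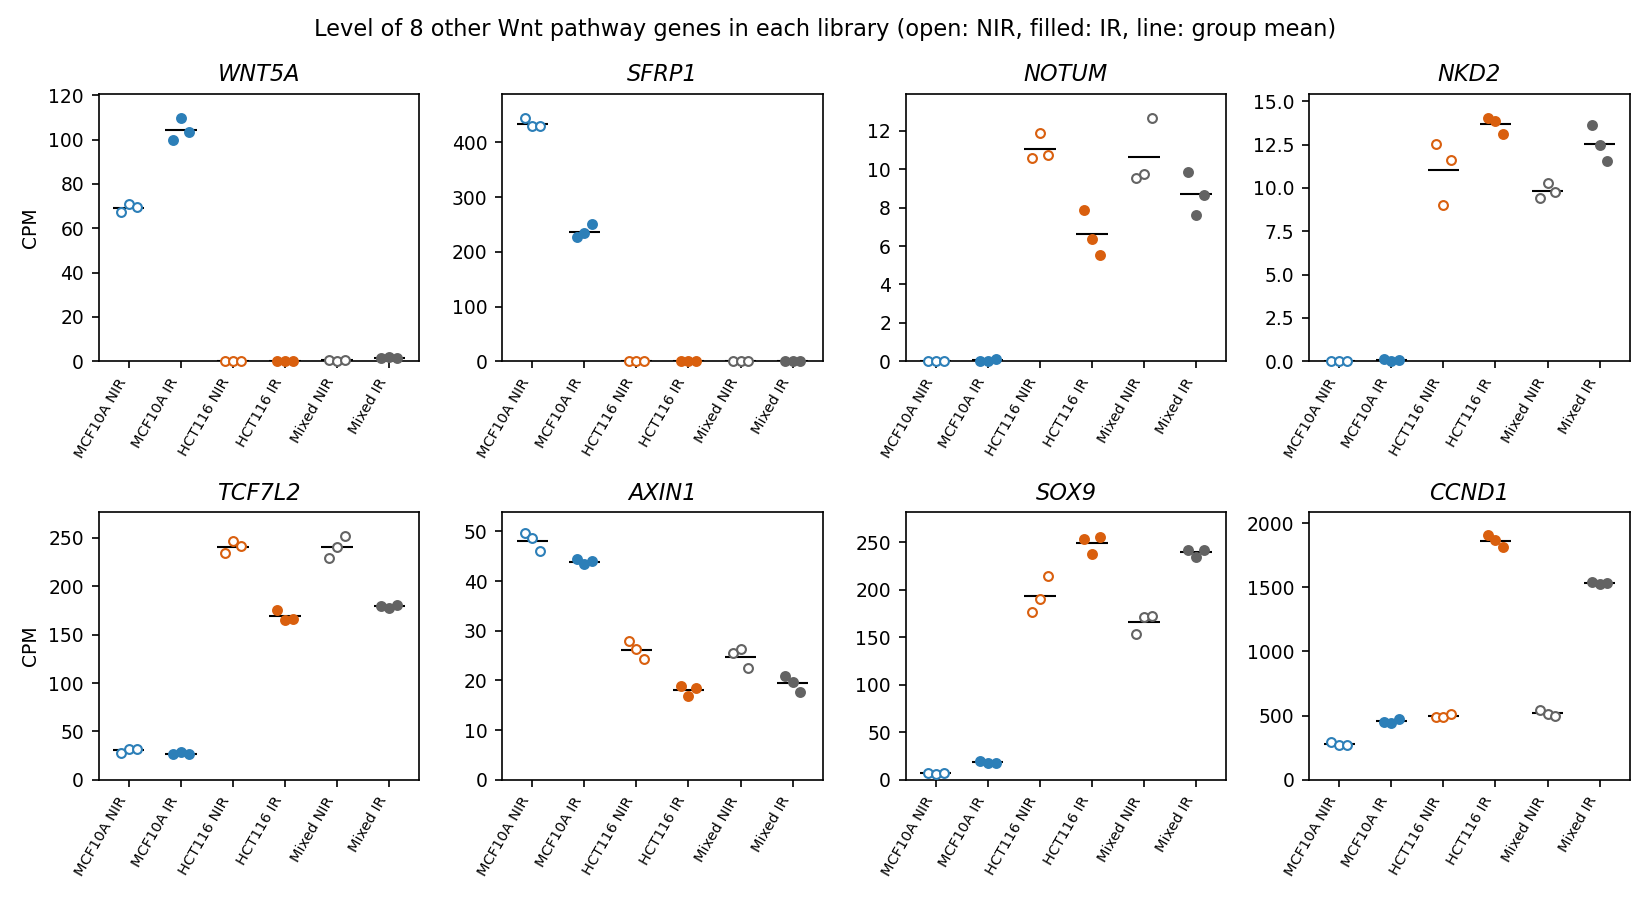
Level in CPM (linear vertical axes, one scale per gene) of 8 further pathway genes in every library, open for NIR and filled for IR, with lines at the group means of 3 libraries. WNT5A and SFRP1 were read almost only in MCF10A, NOTUM and NKD2 in HCT116 and mixed cultures, and CCND1 rose with 10 Gy in all 3 cultures.

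Inside the cell, the destruction complex and transducers had 6 genes higher and 7 lower of 16 tested, shares near the 38.7% and 36.1% of all genes. Beta-catenin itself, CTNNB1, had 440.5 ± 5.78 CPM in HCT116 NIR and 352.3 ± 5.14 CPM in MCF10A NIR (SD, n = 3 each), a log2 difference of 0.12 ± 0.048 (SE; adjusted p = 0.027). AXIN1 (-1.08 ± 0.078) and GSK3B (-0.76 ± 0.055) were lower in HCT116, and APC was called lower at -0.18 ± 0.068 (adjusted p = 0.026). The APC libraries overlapped and the mean CPM lay the other way, with 69.1 in HCT116 NIR and 68.1 in MCF10A NIR, so the sign of APC depends on the scaling. NKD2, the relative of NKD1, had 11.1 CPM in HCT116 NIR and 0 counts in MCF10A NIR, at least 364-fold higher. Among nuclear factors 6 of 11 were higher and 3 lower. TCF7L2, the main TCF factor of the gut, had 241.1 against 30.2 CPM, a log2 difference of 2.80 ± 0.066 (SE), and the co-repressor TLE4 had 0 counts in HCT116 NIR against 12.1 CPM, at least 386-fold lower. Of 12 further textbook targets 10 were higher and 2 lower, among them SOX9 (193.8 against 6.91 CPM) and BMP4 (36.5 against 0.577 CPM).

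**Figure D4:**
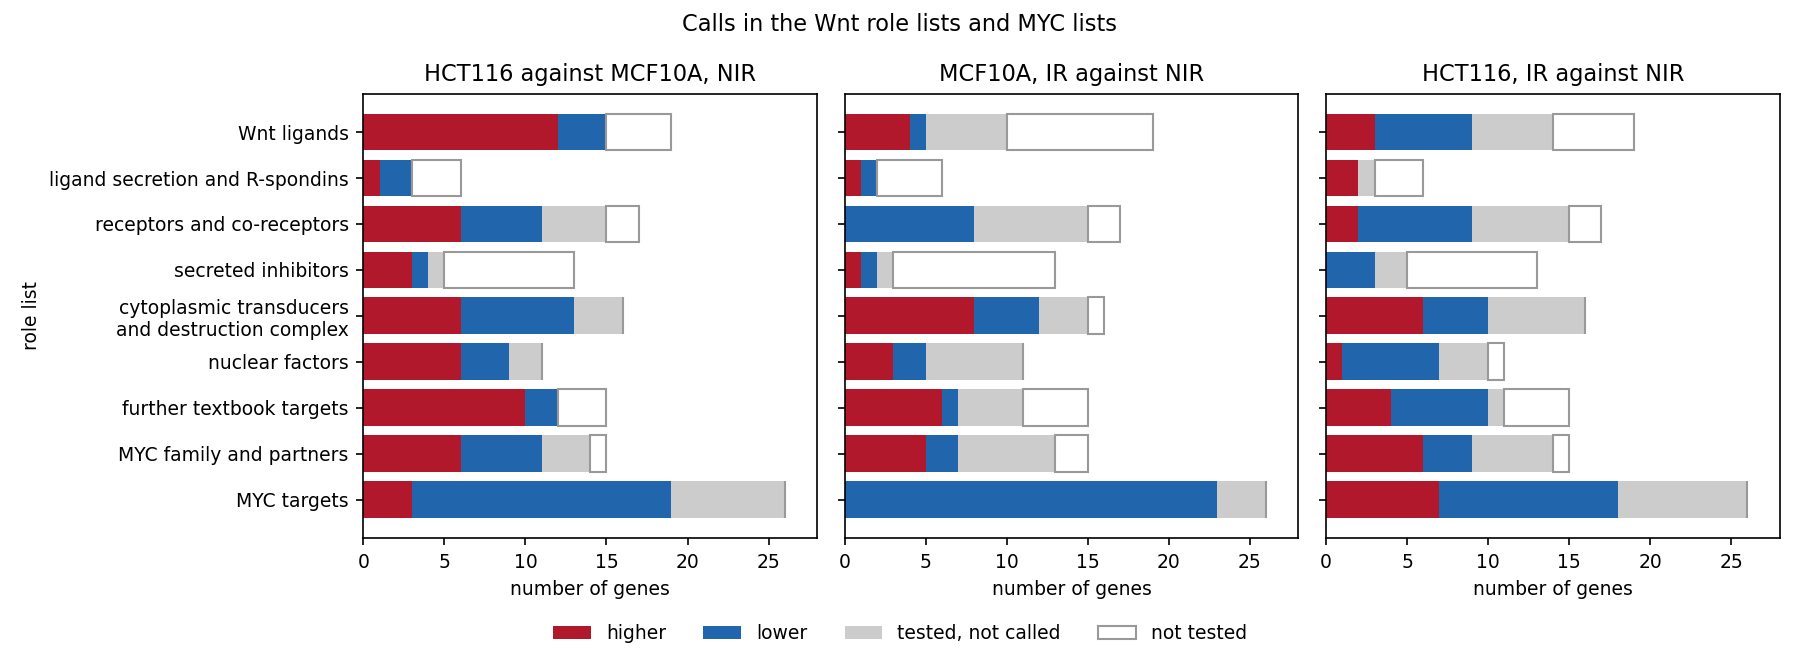
Number of genes in each role list that were higher, lower, tested without passing or not tested, in bars that start at 0, for the line comparison without irradiation and for the change with 10 Gy in each line. Wnt ligands were mostly higher in HCT116, and 23 of 26 MYC targets were lower with 10 Gy in MCF10A.

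With 10 Gy more receptor genes were lower than higher in both lines. In MCF10A, 8 of 15 tested were lower and 0 higher, beside 29.2% and 26.2% of all genes, including FZD1 (-0.99 ± 0.13) and FZD4 (-0.91 ± 0.19). DESeq2 counted 7 lower and 0 higher, the unadjusted test 9 and 1, and upper-quartile factors 4 and 1. The 8 lower became 5 without MCF10A NIR replicate 2 or MCF10A IR replicate 1, and 7 without each of the others. In HCT116, 7 of 15 were lower and 2 higher, beside 27.2% and 25.3% of all genes, with FZD1 at -1.34 ± 0.12 and FZD7 at -1.17 ± 0.12 (SE). The list medians were -0.20 and -0.15, beside 0.00 and 0.01 over all genes tested.

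Wnt ligands moved in both directions. In MCF10A, 4 of 10 ligands were higher and 1 lower with 10 Gy, and in HCT116 3 of 14 were higher and 6 lower. Among all genes 26.2% were higher and 29.2% lower in MCF10A, and 25.3% and 27.2% in HCT116. The response difference passed for 7 of 15 ligands, 1 higher and 6 lower in HCT116, beside 15.4% and 21.9% of all genes. Without each library in turn, 0 to 1 ligands were higher and 4 to 8 lower, and 3 ligands had a group at 0 counts. WNT9A rose in both, in MCF10A from 4.90 to 19.5 CPM (log2 change 1.98 ± 0.14 SE), and in HCT116 from 11.1 to 32.1 CPM (1.54 ± 0.10). WNT10B fell in MCF10A (-1.08 ± 0.31) and WNT3 fell in HCT116 (-1.15 ± 0.17). In HCT116 3 of 5 secreted inhibitors were lower, with FRZB at -2.35 ± 0.29 and NOTUM at -0.73 ± 0.15, and 0 were higher (1 at an unadjusted p under 0.05 and 0 by DESeq2). Of the nuclear factors 6 of 10 were lower in HCT116 and 1 higher, with TCF7L1 at -1.03 ± 0.12 and TCF7L2 at -0.51 ± 0.057. In MCF10A 3 of 11 nuclear factors were higher and 2 lower, and TCF7L2 was -0.18 ± 0.083 (adjusted p = 0.066).

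Of the destruction complex and transducers, 8 of 15 tested genes were higher and 4 lower in MCF10A with 10 Gy, beside 26.2% and 29.2% of all genes, and 6 of 16 were higher and 4 lower in HCT116, beside 25.3% and 27.2%. Without MCF10A IR replicate 1 the count of higher genes in MCF10A was 4. CTNNB1 rose by 0.24 ± 0.039 (SE; adjusted p = 5.2e-06) in MCF10A and 0.16 ± 0.053 (adjusted p = 0.012) in HCT116. AXIN1 fell by 0.16 on the log2 scale in MCF10A (adjusted p = 0.042) and by 0.52 in HCT116 (adjusted p = 8.1e-05). GSK3B rose by 0.13 (adjusted p = 0.019) and 0.46 (adjusted p = 6.6e-07), and APC rose by 0.17 in MCF10A (adjusted p = 0.013) and was 0.07 in HCT116 (adjusted p = 0.39). DVL2, a Dishevelled adaptor, fell by 0.53 in MCF10A (adjusted p = 6e-06) and by 0.60 in HCT116 (adjusted p = 2.6e-07). AMER1, an APC-binding regulator of the complex, fell in MCF10A from 16.6 to 9.23 CPM and rose in HCT116 from 9.37 to 15.9 CPM, with a response difference of 1.56 ± 0.22 (SE; adjusted p = 2.7e-06).

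Among further textbook targets, the cyclin gene CCND1 rose in MCF10A from 277.8 to 455.6 CPM (0.69 ± 0.042) and in HCT116 from 497.3 to 1860.6 CPM (1.91 ± 0.054), and the response difference was 1.14 ± 0.066 (SE; adjusted p = 1.2e-12). The survivin gene BIRC5, which is expressed in dividing cells, fell by 1.23 on the log2 scale in MCF10A and by 1.27 in HCT116. SOX9, a crypt transcription factor, rose from 6.91 to 18.4 CPM in MCF10A and TNFRSF19 fell from 5.02 to 0.992 CPM in HCT116. Over the 97 genes the response difference was higher for 8 and lower for 28 of 80 tested, with a median of -0.40 beside -0.10 over all genes tested, of which 15.4% were higher and 21.9% lower. Without each library in turn, 6 to 9 were higher and 23 to 29 lower, with a median from -0.44 to -0.25. The textbook targets moved in both directions within HCT116, with 4 of 11 higher and 6 lower, beside 25.3% and 27.2% of all genes.

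Genes of the MYC network were described in the same way. Of 26 MYC targets, mostly genes of ribosome production, 3 were higher and 16 lower in non-irradiated HCT116 than in non-irradiated MCF10A, with a median log2 difference of -0.26, beside 38.7%, 36.1% and 0.05 over all genes. With upper-quartile factors or library size alone it was 7 higher and 11 lower. After 10 Gy, 15 were higher and 6 lower in HCT116 (38.1% and 36.8% of all genes), or 18 and 4 with upper-quartile factors and 19 and 4 with library size alone. MYC itself was lower in HCT116 NIR and higher in HCT116 IR under each of these scalings.

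With 10 Gy in MCF10A, 23 of the 26 MYC targets were lower and 0 were higher, with a median log2 change of -0.56 beside 0.00 over all genes tested. Of all genes 29.2% were lower and 26.2% higher. DESeq2 and the test at an unadjusted p under 0.05 also counted 0 higher. FBL, a nucleolar methyltransferase, fell from 286.7 to 115.9 CPM (-1.33 ± 0.060) and RCC1 from 134.0 to 54.6 CPM (-1.31 ± 0.053). In HCT116, 11 were lower and 7 higher, with a median of -0.14, beside 27.2% and 25.3% of all genes and a median of 0.01. RRS1 and POLR1B, both of ribosome production, rose by 0.99 ± 0.094 and 0.81 ± 0.061 (SE), and the glycolytic gene LDHA fell from 2009.5 to 1052.1 CPM (-0.93 ± 0.057). The response difference was higher in HCT116 for 21 of 26 and lower for 2, beside 15.4% and 21.9% of all genes. Its median was 0.52, beside -0.10 over all genes tested. Counts of 21 and 2 were also found with each other scaling, with DESeq2, with the replicate block and without each library in turn.

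**Figure D5:**
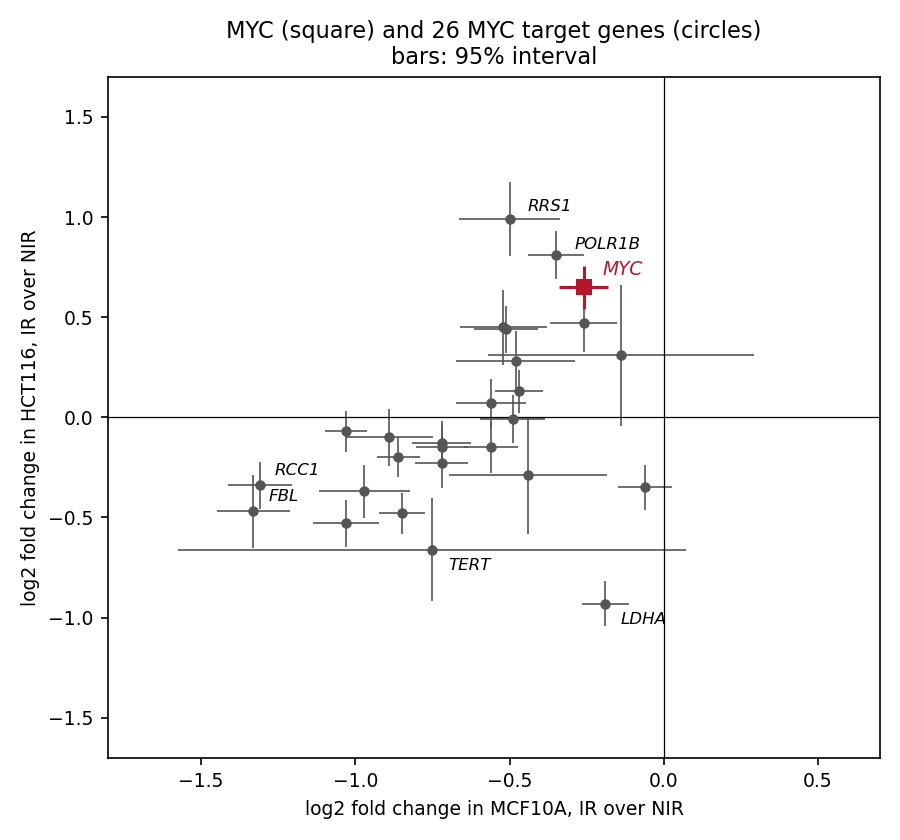
Change of MYC (square) and 26 MYC targets (circles) with 10 Gy in MCF10A (horizontal) and HCT116 (vertical), both on the log2 scale with bars for the 95% interval. MYC lay at -0.26 and 0.65, all 26 targets lay to the left of 0, and they spread on both sides of 0 in HCT116, with RRS1, POLR1B and LDHA at the ends.

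Partners and antagonists of MYC moved in both directions. In MCF10A 5 of 13 tested were higher and 2 lower with 10 Gy, a total near the 55.4% of all genes called, with the antagonists MXD1 (0.58 ± 0.069) and MNT (0.55 ± 0.089) higher and MXD3 (-1.09 ± 0.24) and MGA (-0.35 ± 0.053) lower. In HCT116 6 of 14 were higher and 3 lower, where 52.5% of all genes were called, with MXD4 (0.87 ± 0.11) and the partner MAX (0.73 ± 0.076) higher and MXD3 (-1.90 ± 0.15) and MYCL (-0.53 ± 0.13) lower. MXD3 was thus lower in both lines, and MXD1 and MXD4 are antagonists of the same family.

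The pathway lists of the mixed culture were also set against HCT116 of the same treatment. Of 74 genes tested without irradiation, where 2.04% of all genes passed, 1 was higher and 1 lower than in HCT116, WNT16 (0.58 ± 0.13) and TLE3 (-0.34 ± 0.073). Without each library in turn, 0 to 2 were higher and 0 to 1 lower, and DESeq2 counted 0 higher and 1 lower. After 10 Gy, 7 of 76 were higher and 5 lower, where 5.08% and 3.48% of all genes were. The 5 lower became 3 without HCT116 IR replicate 2 or mixed IR replicate 3 and 2 without mixed IR replicate 2. WNT5A, at 0 counts in HCT116 IR, had 1.61 CPM there over the pooled libraries, at least 53.2-fold higher, beside 104.3 CPM in MCF10A IR and an MCF10A share of 1.23%. WNT5A itself met the rule for the genes that gave this share, so these values are not independent. CCND1 was lower (-0.29 ± 0.040), and its rise with 10 Gy was smaller in the mixed culture than in HCT116 by 0.36 on the log2 scale (adjusted p = 0.0069).

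The genes whose pattern over the 6 group means was most like that of AXIN2 included SEC14L4 and B3GALNT1, with root mean square differences of 0.040 and 0.081 in centred log2(CPM + 0.5) among 14128 genes. Those most like MYC were IFITM3 (0.063), CCNG1 (0.070) and MRPL36 (0.073). IFITM3, for example, had group means of 152.0 and 131.1 CPM in MCF10A NIR and IR, 117.8 and 170.1 CPM in HCT116, and 89.7 and 167.6 CPM in the mixed culture. Likeness is a description over 6 means and carries no test.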

How the data were processed

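Poly(A) RNA of 18 libraries (6 groups of 3) was sequenced in pairs. The deposited tables hold whole-number counts per gene symbol, which the authors made with fastp, STAR and featureCounts on GRCh38, per the submitters' processing notes (versions not given in the sources used here). Each table lists 40916 symbols (10180 of them at 0 in all 18 libraries) and totals of 25737818 to 40839835 counts. Of the values from 1 to 10, 68.3% were even, so both reads of a pair may have been counted. Halved counts were run as an alternative, and bounds from groups at 0 counts (3 counts over the group) cover counting error only.

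Counts were tested with edgeR 4.0.16 in R 4.3.3 (quasi-likelihood test, TMM factors, filterByExpr, Benjamini-Hochberg over all genes tested, threshold 0.05), each comparison on its own groups. SE was the log2 difference divided by the square root of F, and 95% intervals were normal intervals from that SE. CPM is counts per 1000000 of the library total, and per-kilobase levels used GENCODE v29 exon lengths. The MCF10A share used genes of at least 20 CPM in 1 line and under 1 CPM in the other. Scripts were tested on simulated data. Tables were handled in Python 3.11.15 with pandas 2.3.3.

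The alternatives were other size factors, DESeq2 1.42.0, no low-count filter, all 18 libraries in 1 fit, a replicate block, halved counts and leaving out each library. Chi-square per gene between replicates of a group was 2.39 to 7.0 on halved counts, and all replicates were kept as separate libraries. Deviations of same-numbered libraries correlated by -0.064 to 0.111 over 15 pairs of groups, and the numbers were not taken as pairing.

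The 10 genes, the role lists and the marker lists were chosen with earlier results of these data known. Besides the 10 genes and CTNNB1, APC, AXIN1, GSK3B and TCF7L2, each list contributed at most 2 genes per direction and comparison, those with the largest change among genes that passed, reached 1 CPM and did not overlap (overlap was allowed for response differences). AXIN1, SOX9, AMER1, CCND1 and the like are given in a second comparison once named in one. Fibroblast markers summed to 29.2 to 261.1 CPM over the 18 libraries. A few items, among them 1 detail of the HCT116 genotype and 1 gene of the likeness ranking, are not reported here.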

Additional observations from a re-analysis of the deposited data

Results flagged for a closer look

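For 5 of the 9 genes tested, the change with 10 Gy in HCT116 minus that in MCF10A passed edgeR's quasi-likelihood test. The difference on the log2 scale was 0.83 for MYC and 0.76 for ZNRF3, both lower in the 3 irradiated MCF10A libraries and higher in the 3 irradiated HCT116 libraries. It was 3.12 for SP5, 2.23 for LEF1 and -5.22 for LGR5, which rest on few counts. Over all genes tested 37.3% passed.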

How the results depend on the processing

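Of 1064 refits of 69 results for single genes, 984 kept direction and call, 40 lost the call, 17 gained it and 23 changed sign. The cause was not tested.

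The MCF10A share was 0.339% in mixed NIR and 1.03% in mixed IR with markers of at least 50 CPM, 0.263% and 0.843% with markers under 0.2 CPM in the other line, and 0.705% and 2.17% from summed CPM. Without each library it ranged from 0.381 to 0.446% and from 1.20 to 1.25%.

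In MCF10A, genes called higher with 10 Gy went from 0 to 2 with upper-quartile factors, 1 with no low-count filter, 3 with all 18 libraries in 1 fit, 1 with halved counts and 0 to 1 without each library. Those called lower went from 3 to 1 with upper-quartile factors. In HCT116, 4 higher became 2 to 3 without each library. For the response of HCT116 minus MCF10A, 1 lower became 0 with all 18 libraries or halved counts and 0 to 1 without each library. For mixed NIR against HCT116 NIR, 1 lower became 0 without each library (range 0 to 0). For mixed IR against HCT116 IR, 1 lower became 0 with all 18 libraries, 2 with the replicate block (TCF7 at -0.23, adjusted p = 0.022) and 0 to 2 without each library. The block also ended the LEF1 response difference (adjusted p = 0.053).

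Genes whose sign changed had small differences. NKD1 (response of HCT116 minus MCF10A) was 0.002 with library size alone, 0.056 with no filter, 0.051 with all 18 libraries and -0.138 to 0.409 without each library. Without each library, LGR5 ranged from -0.163 to 0.657 (HCT116 IR against MCF10A IR), AXIN2 from -0.131 to 0.026 (HCT116 with 10 Gy) and SP5 from -0.28 to 0.378 (mixed with 10 Gy). For mixed NIR against HCT116 NIR, NKD1 ranged from -0.129 to 0.014, RNF43 from -0.0003 to 0.058 and SP5 from -0.285 to 0.048. AXIN2 ranged from -0.03 to 0.142 for mixed IR against HCT116 IR. For the response of the mixed culture minus HCT116, AXIN2 ranged from -0.22 to 0.009, ZNRF3 from -0.096 to 0.006 and MYC from -0.004 to 0.069.

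Over all genes, mixed NIR against HCT116 NIR had 146 higher and 189 lower, against 276 and 300 with DESeq2, 308 and 363 with no filter and 319 and 397 with the block, and all 18 libraries gave 490 higher. Mixed IR against HCT116 IR had 596 lower, against 261 with all 18 libraries and 957 with the block. The response of the mixed culture minus HCT116 had 123 higher and 27 lower, against 201 and 126 with DESeq2 and 253 and 83 with no filter. In the MYC lists, 9 higher in HCT116 NIR became 15 with upper-quartile factors and 14 with library size alone, and 10 lower in HCT116 IR became 6 with either. In the Wnt lists, 18 lower in MCF10A became 11 with upper-quartile factors.

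Depth limits AXIN2, LGR5, ASCL2, SP5 and LEF1, which had under 20 counts in each library of at least 1 group.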
